A study of Danio rerio with 63 samples.

Results

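The genes described here are the heat shock proteins and chaperonins of the adult zebrafish brain: the 86 genes, of 15418 in the count table, whose symbol begins with hsp, dnaj, ahsa or cct and a digit. They were picked by symbol, and no measured value entered the rule, though earlier results of these data were known when it was set. By family they are 17 HSP70 and HSP110 genes, 6 genes of HSP90 and its activators, 2 mitochondrial chaperonin genes, 7 subunits of the cytosolic chaperonin CCT, 9 small heat shock protein genes, 43 J-domain protein genes and 2 others. The J-domain genes divide into 5 of class A, 14 of class B and 24 of class C.

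Chaperones bind unfolded proteins and let them fold, refold or reach a membrane or a protease. HSP70 works in cycles of ATP hydrolysis that a J-domain protein starts and a nucleotide exchange factor such as an HSP110 ends, HSP90 takes over clients such as steroid receptors and kinases, and the ring-shaped CCT folds actin and tubulin. Some members are always on and abundant in neurons, whereas others are switched on by heat shock factors when proteins unfold. The endoplasmic reticulum and the mitochondrion hold their own sets.

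The study asked how a mutation of brain aromatase (cyp19a1b, the enzyme that makes estrogens in radial glia) changes the transcripts of 3 brain regions in both sexes. Messenger RNA of the region labelled BO (olfactory bulb, OB), the telencephalon (Tel) and the hypothalamus was counted by 3′ barcoded sequencing, in which 1 captured molecule gives 1 unique molecular identifier (UMI). Each region had 21 libraries, each from 3 pooled adult fish of 1 sex and genotype: 6 pools of wild-type (WT) AB females, 4 of mutant females, 6 of WT males and 5 of mutant males. The mutants came from a TALEN-made line with a short frame-shifting deletion in cyp19a1b that, per the study, lowers brain aromatase without removing it, and all fish were kept under the same light cycle and feeding. Pools carry codes from A1 to C2, and the labels do not say what the letter stands for. Levels are UMIs per 1000000 of the library (CPM) after TMM scaling. They are shares of a bulk sample, in which fewer cells of a type and less RNA per cell cannot be told apart. A gene was called changed at an adjusted p of 0.05 or less and at least a 1.5-fold difference.

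Library totals ran from 21444 to 1033008 UMIs (median 281160), and the median total of WT pools was 1.94 to 5.3 times that of mutant pools, so that depth and genotype cannot be told apart by design. In 7 libraries the total lay under 0.35 of the region's median, and these are named below where a result rests on them. The cyp19a1b transcript was not lost in mutants, except that the mutant male pool A1 had 53.2 CPM in Tel against 1013 to 1473 in the other mutant male pools, and 97.2 CPM in the hypothalamus against 492 to 1064. The libraries labelled OB stood apart in tissue markers. Their summed level of 4 radial glia markers was 136 to 281 CPM, against 2400 to 10500 in Tel and 2800 to 8490 in the hypothalamus, and that of 4 measured olfactory epithelium markers was 182 to 726 CPM, against 0 to 39.3 and 10.3 to 35.2. The 5 markers shared by the telencephalon and the bulb summed to 71.5 to 174 CPM in the OB and 951 to 1450 in Tel. Of the 3 bulb markers calb2a made up nearly all of the 1080 to 2990 CPM in the OB, and the list's neuron marker tbx21 had 1 UMI. The sum of the 11 hypothalamus markers did not separate Tel from the hypothalamus, at 410 to 3180 CPM (median 1070) against 475 to 2330 CPM (median 1130), and was 13.8 to 51.1 CPM in the OB. In Tel sst1.1 made up most of it, at a median of 981 CPM against 237 CPM in the hypothalamus. nkx2.1 was also higher in Tel (medians 21.8 and 5.71 CPM). Single markers did differ the other way. oxt had medians of 12.9 CPM in Tel (highest 1580) and 692 CPM in the hypothalamus, pmch 0 and 51 CPM and otpb 0 and 28.3 CPM. The part of this tissue make-up in the region differences below was not tested.

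Abundance differed widely among the members. hspa8, the constitutive cytosolic HSP70, was the most abundant at a mean of 2616 CPM over the 63 libraries, followed by hsp90ab1, the constitutive cytosolic HSP90, at 2296 CPM and hspb6, a small heat shock protein, at 1322 CPM. Then came hsp90aa1.2 (an HSP90 alpha gene, 444 CPM), cct4 (442 CPM), dnaja2a (a class A partner of HSP70, 343 CPM), dnajc5aa (a cysteine string protein of synaptic vesicles, 340 CPM), cct2 (327 CPM), cct7 (318 CPM) and ahsa1b (the activator of the HSP90 ATPase, 306.5 CPM). At the other end, 22 members had fewer than 100 UMIs in all libraries together, down to 2 UMIs for hspb9. The genes known for heat induction were among the low ones. hsp70.1, hsp70.2 and hsp70l had 108, 76 and 131 UMIs in total, and in the OB 13, 12 and 14 of 21 libraries had none. hsp90aa1.1, known in zebrafish for folding muscle myosin, had 32 UMIs, ahsa1a 33, hspb8 77, dnajb1a 115 and dnaja1 130. hsp70.1, hsp70.2 and hsp70.3 lie next to each other with no gene between in RefSeq's GRCz12tu assembly and are near-identical copies, as is hsp70l. Reads with several places were left out by the authors, so the counts of these copies are uncertain. A filter on low counts let 38 members be tested in the OB, 39 in Tel and 51 in the hypothalamus. Of the 86, 35 were tested in all 3 regions and 34 in none, among them hsp70.1, hsp70.2, hsp70l, hsp90aa1.1, ahsa1a, hspb8, dnajb1a, dnaja1 and 9 of the 17 HSP70 and HSP110 genes. hsph1, an HSP110 gene, was not analysed here.

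Most calls among the members lay between regions. Of 49 members tested over all 63 libraries, with the pool as a block, 18 were higher and 7 lower in Tel than in the OB, and 16 were higher and 8 lower in the hypothalamus. Over all 6727 genes tested, 59.4% were called between Tel and the OB (29.3% higher and 30.1% lower) and 60.6% between the hypothalamus and the OB (31.1% higher and 29.5% lower), so that 25 and 24 of 49 members is no more than the background. The hypothalamus and Tel were closer, with 3 members called (2 higher and 1 lower in the hypothalamus) against 15.4% of all genes (9.83% higher and 5.56% lower). The median log2 difference of the members was 0.25 for Tel and 0.317 for the hypothalamus against the OB, beside 0.0697 and 0.083 over all genes. The balance of directions rested on the scaling. With DESeq2's size factors 11 members were higher and 10 lower in Tel, and 12 and 12 in the hypothalamus, while scaling by the library total gave 24 higher and 5 lower in both. The median of all genes under the library total was 0.331 and 0.356, and no called member changed its sign under any of these scalings.

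**Figure D1:**
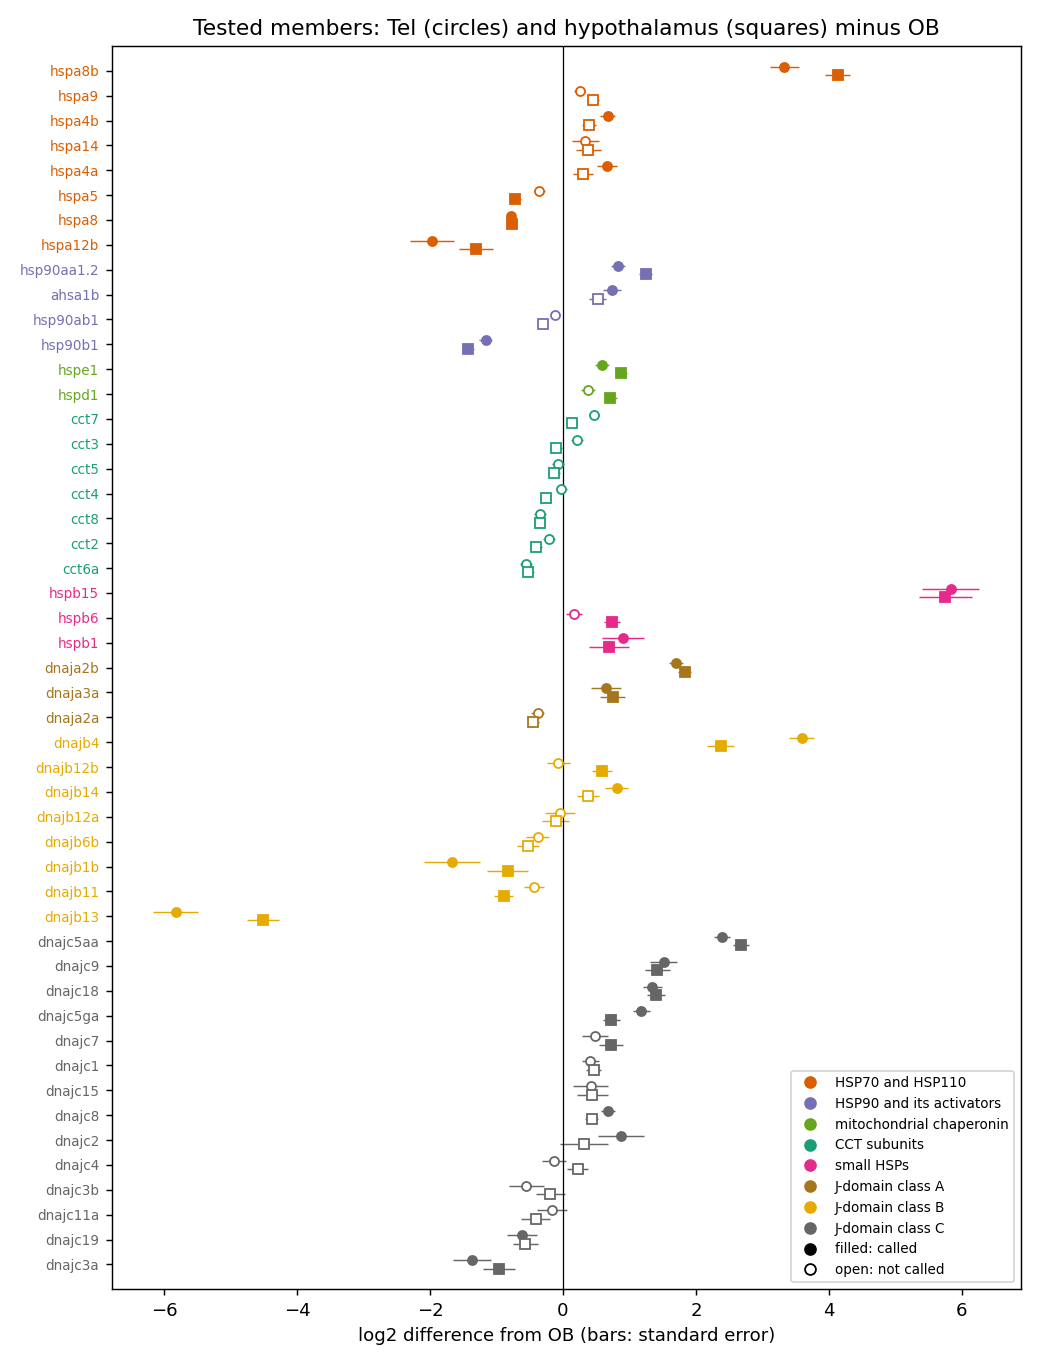
Log2 difference of each of the 49 tested members from the OB (x axis), for Tel (circles) and the hypothalamus (squares), with standard errors as bars. Filled symbols were called (adjusted p of 0.05 or less and at least 1.5-fold), and colours mark families. The 7 CCT subunits lie near 0, whereas J-domain genes range from -5.82 (dnajb13) to 3.59 (dnajb4).

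Among the HSP70 genes the constitutive hspa8 was highest in the OB. It had a lowest, median and highest level of 2671, 3660.3 and 4585 CPM there, 1529.8, 2196 and 2660.1 CPM in Tel and 1538, 2205 and 2529.9 CPM in the hypothalamus. With TMM scaling every OB library was thus above every Tel and hypothalamus library, though the lowest OB library was barely above the highest Tel library. The share of all genes so apart between regions is not given here. The log2 difference of hspa8 was -0.79 ± 0.07 (SE) for Tel and -0.77 ± 0.06 for the hypothalamus (quasi-likelihood test of edgeR, p-values adjusted over all genes by Benjamini-Hochberg, adjusted p = 4.05e-17 and 5.05e-17). Each of these calls held in 7 of 8 alternative settings. The gene named hspa8b went the other way, with medians of 9.74, 97.1 and 174 CPM in the OB, Tel and hypothalamus, and ranges of 0 to 30, 0 to 174 and 92.3 to 329 CPM. Its log2 difference was 3.33 ± 0.22 for Tel and 4.13 ± 0.18 for the hypothalamus, and the hypothalamus was also above Tel by 0.80 ± 0.12 (adjusted p = 1.02e-07). The single Tel library with no hspa8b UMI was the mutant female pool A1, which had 21444 UMIs in all. Within single regions hspa8b passed the filter on low counts in Tel and the hypothalamus but not in the OB. It thus entered the region test through the regions where it was high. hspa4a and hspa4b, HSP110-type exchange factors, were higher in Tel than in the OB by 0.66 ± 0.15 and 0.67 ± 0.11, and their differences of 0.30 and 0.39 for the hypothalamus were under the fold threshold. The Tel calls held in 5 of 7 and 5 of 8 alternative settings. hspa9, the HSP70 of mitochondria, had medians of 165, 195 and 217 CPM and was not called. hspa12b, a distant HSP70 relative known from mammalian endothelium, was lower by 1.97 ± 0.33 and 1.31 ± 0.26, on 268 UMIs in all.

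Of 6 tested members that work inside the endoplasmic reticulum, 2 were called lower than in the OB in Tel, 4 in the hypothalamus and 0 higher. Over all genes 30.1% and 29.5% were called lower, so with TMM scaling the share in Tel was near the background. These counts rested on the scaling. With DESeq2's size factors 4 of the 6 were lower and 0 higher in each region. With the library total 2 were lower in Tel and 3 in the hypothalamus, and 1 was higher in each. hsp90b1 and dnajc3a were lower in both other regions, and hspa5 and dnajb11 in the hypothalamus alone. hsp90b1, the HSP90 of this compartment, had medians of 300.0 CPM in the OB (120.3 to 409), 126 CPM in Tel (65.6 to 194) and 115 CPM in the hypothalamus (63.7 to 162). It was lower by 1.16 ± 0.10 and 1.43 ± 0.09 on the log2 scale (adjusted p = 9.26e-17 and 5.58e-22). hspa5, the BiP chaperone that senses and binds unfolded secretory proteins, had medians of 363, 269.7 and 216 CPM, with overlapping ranges, and was called in the hypothalamus (-0.72 ± 0.08), while Tel difference of -0.35 ± 0.09 was under 1.5-fold. dnajb11 and dnajc3a, J-domain partners of BiP, were lower in the hypothalamus by 0.89 ± 0.15 and 0.96 ± 0.24, and dnajc3a also in Tel by 1.36 ± 0.28. The hspa5 call held in 6 of 8 alternative settings. Over all genes 30.1% were lower and 29.3% higher in Tel, and 29.5% lower and 31.1% higher in the hypothalamus. Among the partner genes listed under this compartment, 13 of 20 tested were lower and 1 higher in Tel, and 14 lower and 2 higher in the hypothalamus. The list also holds stress transcription factors such as atf4a, atf4b and xbp1, so these counts are not of the compartment's own proteins alone. Those lower in both included canx (calnexin, -1.43 and -1.22), calr3a (a calreticulin, -1.27 and -1.39), pdia3 (a disulfide isomerase of glycoproteins, -1.01 and -0.92) and serpinh1b (the collagen chaperone HSP47, -2.97 and -1.91). atf4b, a stress transcription factor, was the member of that list that was higher in both, by 0.62 and 0.60. Its paralog atf4a, on the same list, was lower in both (-1.787 and -2.135).

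Cytosolic HSP90 was less uniform. hsp90ab1 had medians of 2575, 2267 and 2049 CPM and was not called, its differences being -0.12 and -0.30. hsp90aa1.2 had 246 CPM in the OB (77.2 to 409.9), 459 CPM in Tel (183 to 853) and 617 CPM in the hypothalamus (306 to 1201), and was higher than in the OB by 0.83 ± 0.11 and 1.24 ± 0.10 (adjusted p = 5.6e-10 and 4.19e-17). Its activator ahsa1b was higher in Tel by 0.74 ± 0.14, with 0.52 ± 0.13 in the hypothalamus falling short of 1.5-fold. Of the 22 tested cytosolic regulators and co-chaperones on the partner list, 3 were higher and 1 lower in Tel, and 2 higher and 1 lower in the hypothalamus. These partners were called less often than all genes, of which 59.4% and 60.6% were called in either direction. sgtb, a small TPR co-chaperone of HSP70, was higher by 2.60 and 2.72, stip1, which hands clients from HSP70 to HSP90, by 0.74 and 0.66, and fkbp5, an immunophilin of HSP90-bound steroid receptors, was lower by 1.87 and 1.41.

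In mitochondria, hspe1 and hspd1, the lid and the ring of the chaperonin, lie next to each other in RefSeq's GRCz12tu assembly. hspe1 had medians of 169, 271 and 312 CPM and was higher than in the OB by 0.59 ± 0.10 in Tel and 0.88 ± 0.09 in the hypothalamus. The Tel call lay at the fold threshold and held in 5 of 8 alternative settings and 10 of 21 fits without 1 pool, and it was lost with DESeq2's size factors. hspd1 had medians of 107, 150.4 and 175 CPM and differences of 0.38 ± 0.11, under the fold threshold, and 0.71 ± 0.10, which was called and held in 6 of 8 settings. trap1, the mitochondrial HSP90 on the partner list, was higher by 1.13 and 1.25. In each region 2 of the 5 tested mitochondrial partners were higher and none lower, beside 29.3% and 31.1% of all genes higher. The cytosolic chaperonin gave no call. All 7 CCT subunits (cct2, cct3, cct4, cct5, cct6a, cct7 and cct8) were tested and none was called between any regions by edgeR with TMM scaling, although 5, 4 and 4 of them had an unadjusted p of 0.05 or less (Tel against OB, hypothalamus against OB and hypothalamus against Tel). Their differences from the OB ran from -0.55 (cct6a, Tel) to 0.47 (cct7, Tel). cct6a was past the p threshold in both regions (adjusted p = 4.27e-07 and 3.1e-07) but under 1.5-fold, and it was called with DESeq2 in both.

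**Figure D2:**
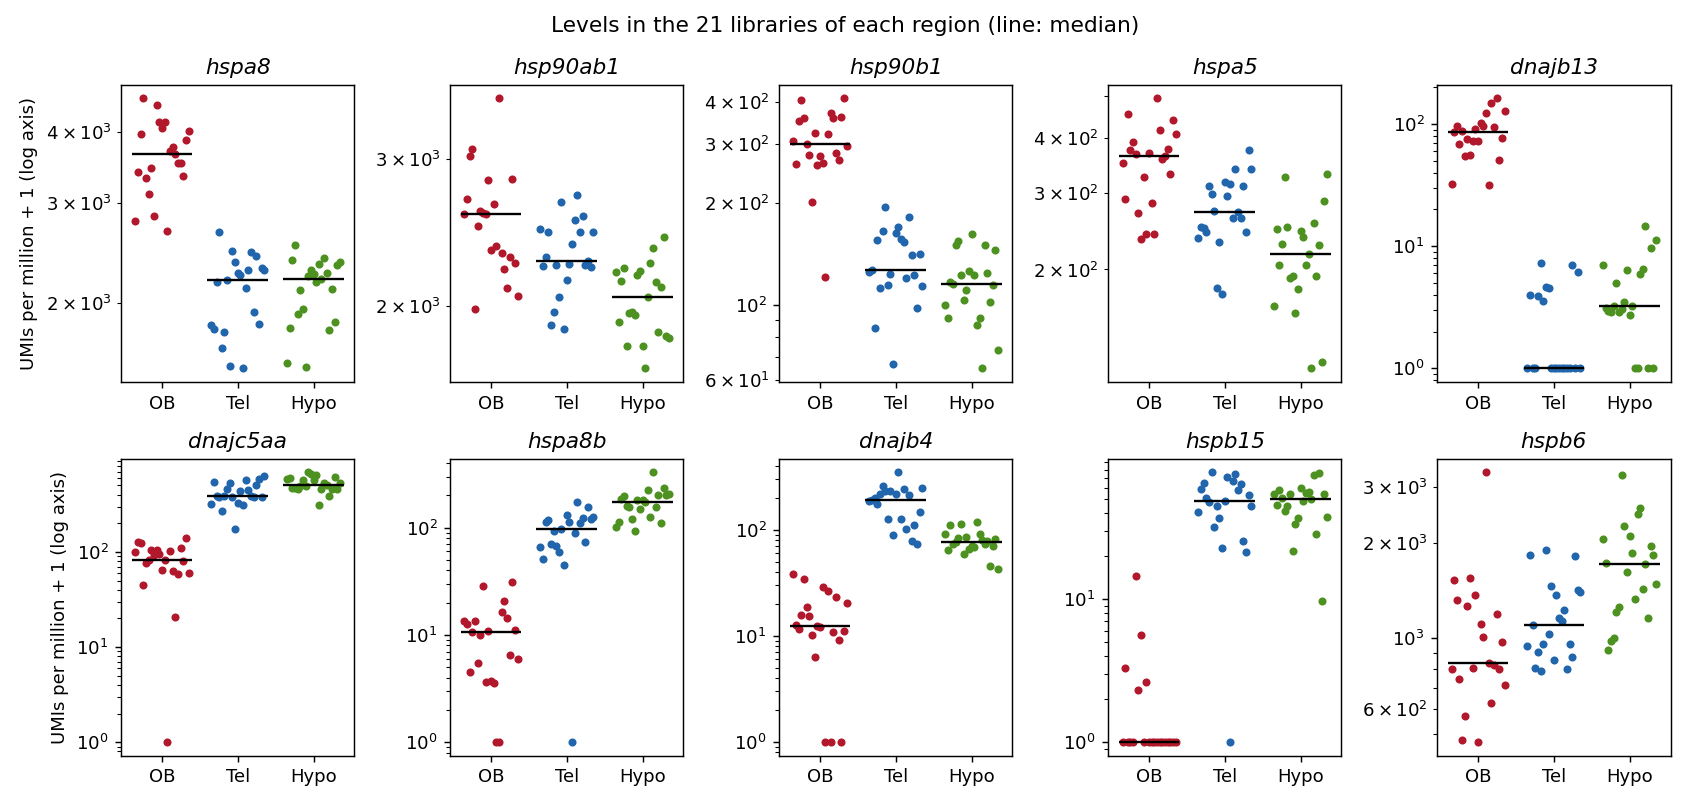
Level of 10 members in each of the 21 libraries per region (points, CPM plus 1, log axis) with the median as a line. hspa8, hsp90b1 and dnajb13 are highest in the OB, and dnajc5aa, hspa8b, dnajb4 and hspb15 lowest there.

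The J-domain proteins held wide region differences in both directions. dnajb13, known from mammals as a part of the radial spokes of motile cilia and sperm flagella, was found in all 21 OB libraries at 30.9 to 161 CPM (median 85.5). In Tel 13 of 21 libraries had no dnajb13 UMI and the highest had 6.33 CPM, and in the hypothalamus 4 had none and the highest had 13.7 CPM. The log2 differences were -5.82 ± 0.34 and -4.50 ± 0.24 (adjusted p = 1.62e-23 and 1.5e-25). Within single regions dnajb13 passed the filter on low counts in the OB alone. It thus entered the region test through the region where it was high, and the filter favours wide differences among such genes. dnajb4, a class B partner of HSP70, had medians of 11.5, 188 and 75.7 CPM, so that Tel was above the OB by 3.59 ± 0.19 and the hypothalamus below Tel by 1.21 ± 0.13. No OB library (highest 37.5 CPM) reached the lowest Tel (72.7 CPM) or hypothalamus library (41.3 CPM). dnajb4 passed the filter within Tel and the hypothalamus but not within the OB. dnajc5aa, the cysteine string protein, had medians of 80.9, 384 and 506 CPM and was higher than in the OB by 2.39 ± 0.12 and 2.68 ± 0.12, again with no overlap (OB highest 138 CPM, Tel lowest 175 CPM). dnaja2b was higher by 1.70 ± 0.10 and 1.83 ± 0.10, also without overlap, whereas its paralog dnaja2a was not called at -0.38 and -0.44. The share of all genes without overlap between regions is not given here, so how common such separation was cannot be judged.

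Among the other J-domain genes, dnajc9, a co-chaperone of histones H3 and H4 in human cells, was higher by 1.51 ± 0.21 and 1.42 ± 0.19, dnajc18 by 1.34 ± 0.15 and 1.40 ± 0.13, and dnajc5ga by 1.18 ± 0.13 and 0.73 ± 0.13. dnajb1b, a class B gene like dnajb1a, was lower by 1.67 ± 0.42 and 0.83 ± 0.31 at medians of 18.7, 7.19 and 13.6 CPM. dnajb12b, which acts at the membrane of the endoplasmic reticulum, was higher in the hypothalamus than in the OB by 0.59 ± 0.15 and than in Tel by 0.66 ± 0.15. The first of these calls held in 4 of 8 alternative settings, the second in all 8. dnajc2, a ribosome-bound partner of HSP70, was called in Tel (0.88 ± 0.34, adjusted p = 0.0202) on 86 UMIs in the OB and 116 in Tel, and this call held in 4 of 7 settings. In the hypothalamus the calls of dnajc5ga and dnajb1b held in 5 of 8 and 5 of 7.

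All 3 tested small heat shock proteins were called higher in the hypothalamus than in the OB, the hspb1 call only under part of the settings. Within single regions, hspb1 and hspb15 passed the filter on low counts in the hypothalamus but not in the OB. Such genes enter the region test through the region where they are high, so this count cannot be read as a trait of the family. The other 6 genes of the family were tested in no region. Over all genes 31.1% were called higher there. hspb15 was nearly absent from the OB, where 16 of 21 libraries had no UMI and 7 UMIs were found in all. It had medians of 47.5 CPM in Tel and 49 CPM in the hypothalamus, and log2 differences of 5.83 ± 0.43 and 5.75 ± 0.40 (adjusted p = 2.06e-18 and 1.54e-19). hspb6 was abundant everywhere, with medians of 834, 1105 and 1717 CPM, and differed by 0.17 ± 0.12 in Tel and 0.73 ± 0.12 in the hypothalamus. hspb1, the HSP27 that caps actin and holds unfolded proteins, was higher by 0.91 ± 0.32 and 0.69 ± 0.30 at medians of 13.1, 25.1 and 22.8 CPM. Its hypothalamus call held in 3 of 7 alternative settings and in 15 of 21 fits without 1 pool, and was lost with DESeq2's size factors and without the low-total libraries.

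The next question was whether these genes differed by genotype in females. In mutant against WT females 1 of 38 members was called in the OB, 0 of 39 in Tel and 1 of 51 in the hypothalamus, and both calls were ahsa1b. Over all genes 2.5%, 2.46% and 3.56% were called. The members were thus called about as often as other genes or less. At an unadjusted p of 0.05, 7, 3 and 8 members passed (18.4%, 7.69% and 15.7%, against 12.1%, 12.6% and 12.1% of all genes), and DESeq2 called ahsa1b alone in each region. Their median log2 difference was 0.0962, 0.182 and 0.0908, beside -0.00166, -0.00232 and 0.0419 over all genes.

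ahsa1b encodes the protein that binds the middle of HSP90 and speeds its ATP hydrolysis. In the hypothalamus the 6 WT female pools had 302 to 451 CPM (median 364), and the 4 mutant female pools A1, A2, B1 and C1 had 115, 161, 101 and 91.8 CPM. In the OB the WT females had 150.3 to 294 CPM (median 217) and the mutant females 118, 90.8, 62.1 and 19.6 CPM, on 4, 15, 4 and 2 UMIs. In Tel they had 325 to 581 CPM (median 404) and 121, 105, 132 and 158 CPM. All mutant female pools were below all WT female pools in each of the 3 regions, as for 4.91%, 6.31% and 5.99% of all genes in either direction. The log2 difference was -1.72 ± 0.47 in the OB, -1.64 ± 0.50 in Tel and -1.68 ± 0.44 in the hypothalamus (quasi-likelihood test of edgeR, Benjamini-Hochberg adjusted, adjusted p = 0.0469, 0.0882 and 0.0262). In the OB tissue markers moved with this comparison. The summed olfactory epithelium markers had a median of 224 CPM in WT females (194 to 504) and 459 CPM in mutant females (313 to 726), the skeletal muscle markers 152 (133 to 202) and 355 CPM (168 to 556), and the bulb markers 2420 (1990 to 2990) and 1650 CPM (1340 to 2010). In the hypothalamus the muscle markers had medians of 183 and 161 CPM and the radial glia markers 4960 and 4400 CPM, with overlapping ranges. Their part in the ahsa1b difference was not tested.

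These ahsa1b calls lay close to the threshold. In the OB the call held in 4 of 8 alternative settings and remained only without WT female A1, mutant male C1 or mutant male C2 when 1 of 21 pools was left out (adjusted p = 0.0065 to 0.194). In the hypothalamus it held in 6 of 8 settings and was lost without WT female B1 or mutant female A1, B1 or C1 (adjusted p = 0.0504, 0.0606, 0.0999 and 0.0979). Without the low-total libraries, which include mutant female pools A1 and B1 of the OB, A1 and A2 of Tel and A1 of the hypothalamus, the log2 differences were -1.89, -1.54 and -1.70, and none was called (adjusted p = 0.161, 0.329 and 0.0673).

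**Figure D3:**
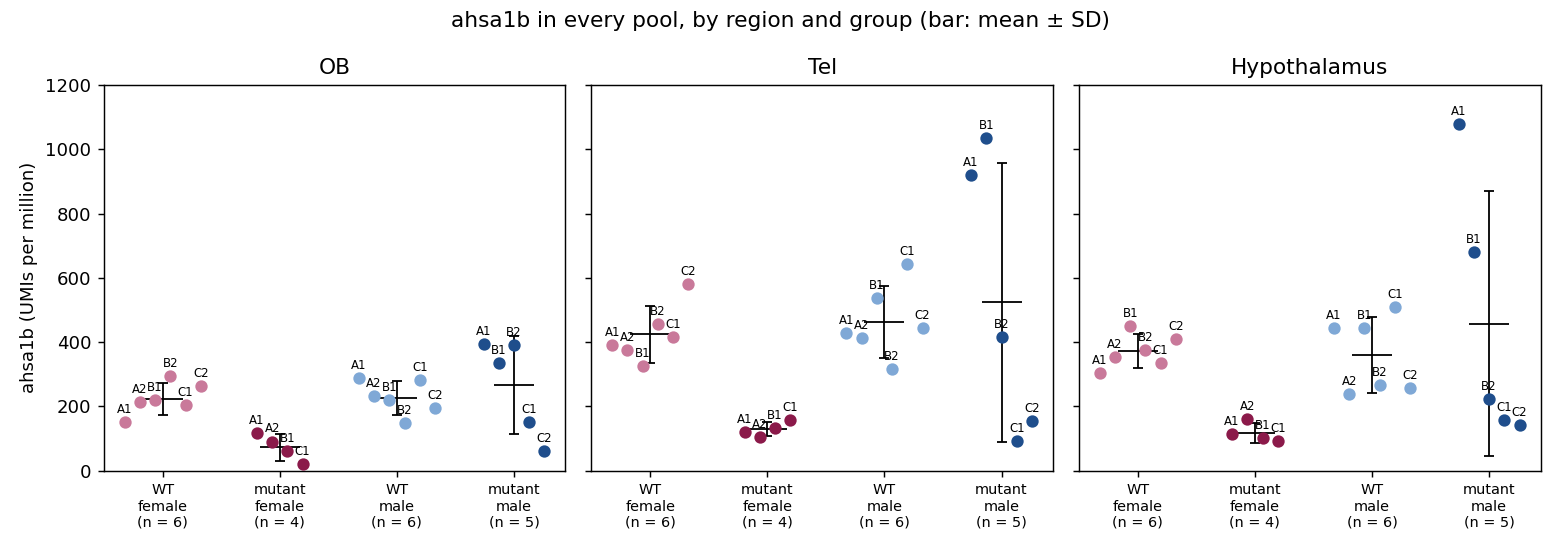
ahsa1b in every pool (points with pool codes, CPM) by region and group, with the mean ± SD as a bar. The 4 mutant female pools lie below all 6 WT female pools in each region. In Tel and the hypothalamus the mutant male pools A1 and B1 lie above the WT males and C1 and C2 below them. B2 is within the WT males in Tel and below them in the hypothalamus. In the OB A1, B1 and B2 lie above the WT males, C1 within them and C2 below.

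In males ahsa1b was not called between mutant and WT. Whether its genotype difference differed between the sexes was tested below, and edgeR called it in no region. WT males had 148 to 288 CPM of ahsa1b in the OB, 317 to 642 CPM in Tel and 239 to 508 CPM in the hypothalamus, overlapping the WT females. The mutant male pools A1, B1, B2, C1 and C2 had 394, 335, 391, 151 and 61.1 CPM in the OB. They had 920.0, 1036, 415, 92.6 and 154 CPM in Tel, and 1079, 681, 223, 158 and 143 CPM in the hypothalamus. Pools A1 and B1 were thus above the WT males and C1 and C2 below them in Tel and the hypothalamus, as the plot of ahsa1b by pool shows. The mutant against WT difference in males was 0.21 ± 0.32, 0.16 ± 0.37 and 0.37 ± 0.35 in the OB, Tel and hypothalamus (adjusted p = 0.895, 0.950 and 0.691). Pool A1 is the one in which cyp19a1b stood apart.

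Among the partner genes, the same comparison called hsf2 (a heat shock transcription factor) and p4hb (protein disulfide isomerase, which forms and reshuffles disulfide bonds in the endoplasmic reticulum). Of 52, 50 and 57 partner genes tested in the OB, Tel and hypothalamus, these 2 were the ones called in females, both lower in all 3 regions. Over all genes 2.5%, 2.46% and 3.56% were called. Mutant females had 147, 72.6, 155 and 245 CPM of hsf2 in the OB, 322, 262, 143 and 452 CPM in Tel and 229, 129, 79.4 and 379 CPM in the hypothalamus. WT females had 513 to 3604, 465 to 3815 and 688 to 4200.1 CPM. The hsf2 difference was -3.43 ± 0.57, -2.62 ± 0.58 and -3.23 ± 0.60 (adjusted p = 0.000962, 0.01 and 0.00119). p4hb was at 1443, 266, 931 and 589 CPM in mutant females of the OB, 362, 577, 479 and 611 CPM in Tel and 309, 247, 339 and 485 CPM in the hypothalamus. WT females had 2247 to 7173, 1748 to 3901 and 1638 to 4219 CPM of p4hb. Its difference was -2.56 ± 0.50, -2.56 ± 0.49 and -3.01 ± 0.46 (adjusted p = 0.00326, 0.00347 and 0.000166).

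All mutant female pools were below all WT female pools for both genes in each region, as for 4.91%, 6.31% and 5.99% of all genes in either direction. Both calls held in all 8 alternative settings in the OB and the hypothalamus and in 7 of 8 in Tel, where leaving out the low-total libraries ended them (hsf2 -2.60, adjusted p = 0.146, and p4hb -2.50, adjusted p = 0.113). The hsf2 call in Tel was also lost without mutant female B1 (adjusted p = 0.0754). These settings were added for hsf2 and p4hb after their calls were seen. In mutant males p4hb followed the pool codes as ahsa1b did, with 4186, 7000.5, 2000.5, 579 and 1062 CPM in pools A1, B1, B2, C1 and C2 of Tel and 4130.2, 4528, 1263, 595 and 1377 CPM in those of the hypothalamus. hsf2 had 1319, 2515, 662, 480.5 and 678 CPM in the same Tel pools and 938, 1917, 241, 595 and 1031 CPM in the hypothalamus. WT females themselves varied in hsf2 by pool, from 688 CPM in B1 to 4200.1 CPM in C1 of the hypothalamus. hsf2 was also called between the pool letters there (F test of edgeR's quasi-likelihood fit, adjusted p = 0.0383). Its level in C was above that in B by 1.295 on the log2 scale. The part of the letter in the hsf2 genotype difference was not tested.

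hsp90aa1.2 had the largest positive difference of the HSP90 genes in mutant females of Tel and the hypothalamus, without being called. In Tel the WT female pools had 202 to 587 CPM (median 378) and the mutant female pools 643, 839, 948 and 441 CPM, so that 1 mutant pool lay within the WT range. In the hypothalamus the WT females had 383 to 740.2 CPM (median 458) and the mutant females 779, 783, 1298 and 545 CPM. The log2 difference was 0.88 ± 0.29 and 0.71 ± 0.27 (adjusted p = 0.121 and 0.214), against 0.07 ± 0.31 in the OB. The hypothalamus call appeared with the pool code as a block (0.81, adjusted p = 0.0408), and the call in Tel with scaling by the library total (1.14, adjusted p = 0.0377) or with thinned counts (1.12, adjusted p = 0.0156). hsp90ab1 and hsp90b1 were not called.

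The other families of mutant females gave no call. The 7 CCT subunits ranged from -0.39 to 0.34 in the OB, 0.02 to 0.36 in Tel and -0.29 to 0.14 in the hypothalamus. HSP70 and HSP110 genes had medians of 0.287, 0.316 and 0.304 with ranges of -0.40 to 1.01, -0.16 to 0.47 and -0.20 to 1.16. In the OB hspa4b had 118, 115, 124 and 128 CPM in the mutant female pools against 72.7 to 112 CPM in WT females, a non-overlap with a difference of 0.40 ± 0.25 (adjusted p = 0.589). dnajb12a, a J-domain protein of the endoplasmic reticulum membrane, did not overlap in the other direction, on 0, 3, 1 and 2 UMIs in the mutant female pools (-1.15 ± 0.49, adjusted p = 0.395). The widest spreads within a group also arose in shallow libraries of Tel, where hspa8b had no UMI in mutant female A1, hspa14 (a ribosome-associated HSP70) none in mutant female A2 and dnajb11 none in WT male B2.

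**Figure D4:**
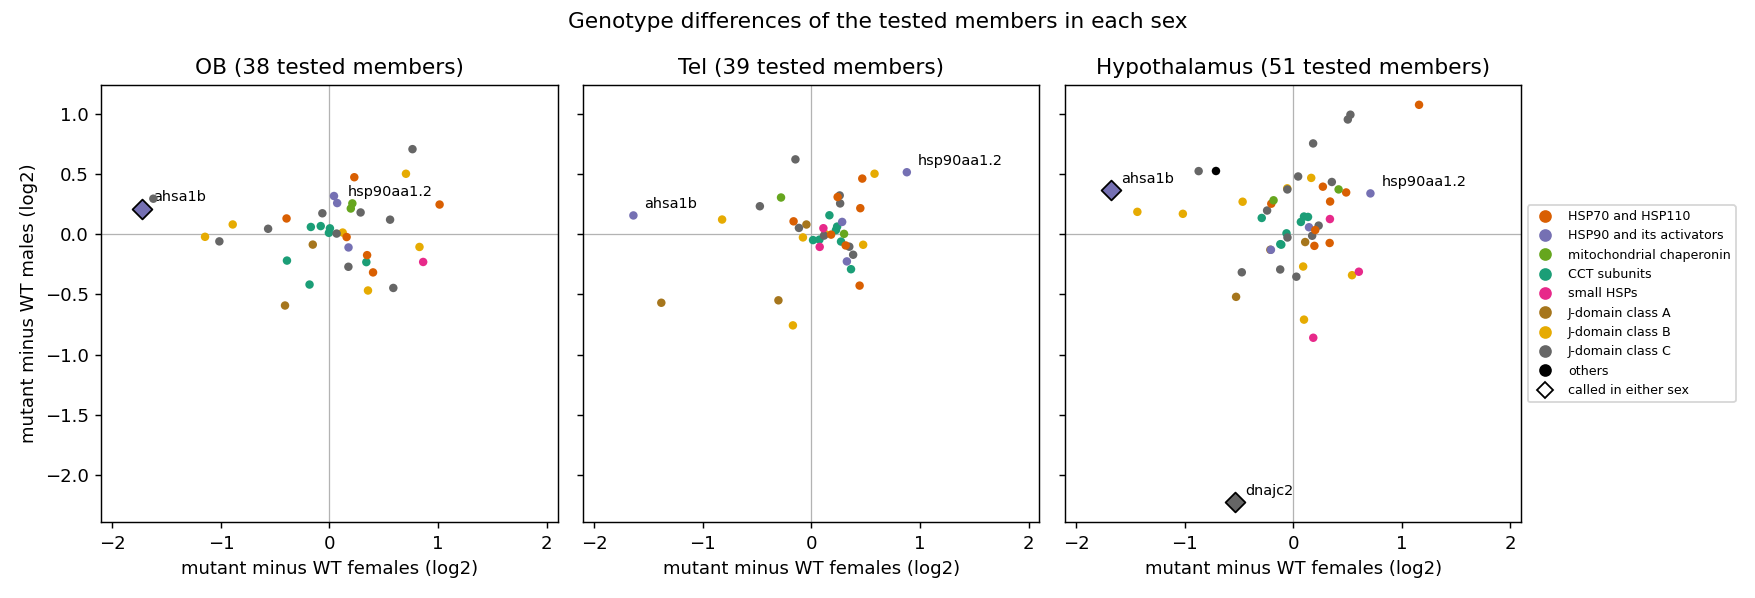
Log2 difference of mutant from WT in females (x axis) and males (y axis) for each tested member, 1 panel per region, coloured by family. Diamonds were called in either sex: ahsa1b at -1.72 and -1.68 in females of the OB and the hypothalamus, and dnajc2 at -2.23 in males of the hypothalamus.

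In males the comparison of mutant with WT called 0 of 38 members in the OB, 0 of 39 in Tel and 1 of 51 in the hypothalamus by the quasi-likelihood test of edgeR, beside 0.0221%, 0.0225% and 1.93% of all genes. DESeq2 called 0 members in each region, and 4, 2 and 6 members had an unadjusted p of 0.05 or less (against 9.45%, 9.67% and 15% of all genes). The call was dnajc2. Its 5 mutant male pools A1, B1, B2, C1 and C2 had 4.86, 9.92, 9.28, 4.05 and 0 CPM, on 1, 3, 1, 1 and 0 UMIs, and the 6 WT male pools 12.6 to 41.2 CPM (median 28.7), on 6 to 32 UMIs. The groups did not overlap, as for 2.99% of all genes in either direction, and the log2 difference was -2.23 ± 0.50 (adjusted p = 0.0228). With 0 to 3 UMIs per mutant male pool, dnajc2 passed the filter on low counts through pools of other groups, so the filter favoured this direction. It was fitted in 6 of 8 alternative settings, and not with thinned counts or with only the 2 groups. The call was lost without the low-total libraries, mutant female A1 and mutant male B2 (-2.33, adjusted p = 0.0504), without WT male B1, mutant male A1 or mutant male C2 (adjusted p = 0.0561, 0.0681 and 0.067), and DESeq2 gave it no adjusted p. In mutant females of the hypothalamus dnajc2 had 11.5, 21.5, 15.9 and 5.92 CPM against 11.1 to 26.3 CPM in WT females (-0.54 ± 0.50, adjusted p = 0.747), and the interaction of genotype with sex was 1.69 ± 0.76 (adjusted p = 0.467). It had too few UMIs to be tested within the OB or Tel. hspa14, its partner on the ribosome in mammals, was not called.

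hspd1 in the hypothalamus did not overlap between male genotypes, at 214, 208, 223, 206 and 186 CPM in mutants against 135 to 183 CPM in WT, but by a small step of 0.37 ± 0.17 (adjusted p = 0.288). dnajc3b, a partner of BiP, was likewise apart at 24.3 to 43.9 CPM against 12.9 to 23.1 CPM (0.95 ± 0.31, adjusted p = 0.117). In the OB hspa5 was at 322 to 394 CPM in mutant males and 206 to 319 CPM in WT males (0.47 ± 0.17, adjusted p = 0.403). Such non-overlap was found in 1.13% of all genes in the OB and 2.99% in the hypothalamus. dnaja2a had differences of -0.59, -0.55 and -0.52 in males of the OB, Tel and hypothalamus, with adjusted p of 0.472, 0.427 and 0.215. edgeR called 0 of the 52, 50 and 57 partner genes in males, with 4, 2 and 11 at an unadjusted p of 0.05 or less.

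Between WT males and WT females no tested member was called. edgeR called 0 of 38, 39 and 51 members in the OB, Tel and hypothalamus, beside 0.0885%, 0.0451% and 0.0155% of all genes, and so did DESeq2. At an unadjusted p of 0.05, 2, 0 and 1 members passed, beside 3.58%, 1.8% and 3.73% of all genes. They were dnajb6b, a class B chaperone of aggregating proteins, and hspa5 in the OB (0.62 and -0.43) and hspb6 in the hypothalamus (0.64), all with an adjusted p of 1.0 or 0.9997.

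Mutant males against mutant females gave 1 call in the OB, 0 in Tel and 2 in the hypothalamus, beside 2.19%, 1.19% and 2.38% of all genes. ahsa1b was higher in mutant males by 1.95 ± 0.48 in the OB, 1.94 ± 0.51 in Tel and 2.002 ± 0.46 in the hypothalamus (adjusted p = 0.0267, 0.0555 and 0.0114). This comparison uses the same mutant females as the one above. The sexes overlapped, since mutant male pools C2 of the OB, C2 of Tel and C1 and C2 of the hypothalamus were within the female range and C1 of Tel below it. Without mutant male A1 the calls were lost (adjusted p = 0.0821 in the OB and 0.0629 in the hypothalamus). They were also lost without mutant male B1 (0.077 and 0.0544), mutant female B1 (0.0622 and 0.0578) or C1 (0.0832 and 0.0548), and the OB call without mutant female A2 (0.105). In Tel 2 members (5.13%, against 8.36% of all genes) had an unadjusted p of 0.05 or less, and DESeq2 called ahsa1b.

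dnajc5ga, named as a gamma form of the cysteine string protein, was the other call of the hypothalamus. Mutant males had 170.1, 268, 204, 198 and 302 CPM and mutant females 115, 48.3, 117 and 124 CPM. The groups did not overlap, as for 3.23% of all genes in either direction. The difference was 1.18 ± 0.31 (adjusted p = 0.0391), and it held in 4 of 8 alternative settings. With the pool code as a block it was 1.08 (adjusted p = 0.0535), and it was lost without mutant female A1, A2, B1 or C1 or mutant male B1 or C2 (adjusted p = 0.063, 0.218, 0.0786, 0.0513, 0.12 and 0.106). The WT pools, at 103 to 336 CPM in females and 134 to 202 CPM in males, overlapped the mutant males in both sexes and the mutant females in females alone. Among the partner genes p4hb was higher in mutant males by 2.39, 2.51 and 2.77 in the OB, Tel and hypothalamus (adjusted p = 0.0115, 0.0098 and 0.000656) and hsf2 by 2.75 and 2.19 in the OB and the hypothalamus (adjusted p = 0.0115 and 0.0413). Both OB calls were lost without mutant female A2 (adjusted p = 0.105 each) and the Tel call of p4hb without mutant female B1 (0.0579). Without the low-total libraries the OB call of hsf2 and the Tel call of p4hb were lost (0.073 and 0.215), with only the 2 groups both p4hb calls of the OB and Tel (0.0867 and 0.0996), and with the library total the hypothalamus call of hsf2 (0.0565). The hsf2 call of the hypothalamus was lost without mutant female A1, A2 or B1 or mutant male A1, B1 or C2 (0.0982, 0.174, 0.185, 0.0698, 0.176 and 0.0659).

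The test of whether the genotype difference itself differed between the sexes called 0 members in the OB, Tel and hypothalamus by edgeR, beside 0.199%, 0.496% and 2.04% of all genes. At an unadjusted p of 0.05, 6, 2 and 6 members passed (15.8%, 5.13% and 11.8%, against 9.69%, 7.44% and 9.33% of all genes), and DESeq2 called ahsa1b in the OB and ahsa1b and dnajc5ga in the hypothalamus. For ahsa1b the female minus male difference was -1.94 ± 0.57, -1.80 ± 0.62 and -2.05 ± 0.56 (adjusted p = 0.135, 0.243 and 0.0541). The difference between the sexes thus did not pass the threshold, with all mutant female pools below the WT females and mutant male pools on both sides of the WT males in Tel and the hypothalamus. For p4hb it was called in Tel (-2.84 ± 0.62, adjusted p = 0.0309) and the hypothalamus (-3.28 ± 0.57, adjusted p = 0.00131).

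The pool letters marked a further difference. With sex and genotype in the model, the 3 letters, of 7 pools each per region, differed in 1 of 38 members in the OB, 1 of 39 in Tel and 10 of 51 in the hypothalamus, beside 5.77%, 9.87% and 18.9% of all genes (F test of edgeR's quasi-likelihood fit, adjusted p of 0.05 or less). Members were thus called about as often as other genes in the hypothalamus. Cell type markers moved with the letters there and in Tel. In the hypothalamus the summed red blood cell markers had medians of 3020, 5470 and 7860 CPM in A, B and C (ranges 2040 to 5270, 3190 to 11600 and 4160 to 15200), and the radial glia markers 4310, 4690 and 7500 CPM (2800 to 5290, 3360 to 4960 and 4770 to 8490). In Tel the radial glia markers had medians of 3990, 5440 and 7070 CPM (2400 to 5730, 4400 to 8080 and 6010 to 10500). The red blood cell markers of Tel had medians of 2300, 3450 and 4090 CPM, with overlapping ranges. The part of these markers in the letter differences was not tested. hspe1 was the clearest, with means of 252 ± 48 (SD), 313 ± 34.9 and 447 ± 87.8 CPM in letters A, B and C of the hypothalamus (adjusted p = 0.000636). Its lowest C pool (389 CPM) was above the highest A and B pools (330.4 and 362 CPM). The share of all genes so apart between letters is not given here. cct4 (339, 399 and 504 CPM) and cct5 (182, 229 and 274 CPM) were likewise highest in C (adjusted p = 0.00704 and 0.0195), as was the partner tcp1, the founding subunit of the same ring (C over A by 0.57, adjusted p of the F test = 0.018).

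dnajc7, which passes clients between HSP70 and HSP90, had 88.7, 63.8 and 38.2 CPM in A, B and C (adjusted p = 0.00466). dnajc19, of the mitochondrial import motor, had 22.7, 13.3 and 37.9 CPM, hspa5 212, 185 and 290.2 CPM and dnajc9 73.2, 65.6 and 103 CPM. hsp90aa1.2 peaked in B at 832 CPM against 576 and 546 CPM in A and C (adjusted p = 0.0156). hsp70.3, of the heat-inducible cluster, had 10.6, 25.5 and 20 CPM, and its log2 difference of B from A was 2.06 ± 0.46. dnajb12b was highest in A and lowest in C in the hypothalamus (289.7, 218 and 150.3 CPM) and in the OB, where it was the single call (169, 151 and 58.4 CPM, adjusted p = 0.00943). In Tel the call was hspd1, highest in B (156, 203 and 138 CPM, adjusted p = 0.0488), and it held in 1 of 7 alternative settings. In WT libraries only, the calls of dnajc7, hspe1 and hsp90aa1.2 in the hypothalamus held and hsp70.3 was not among the genes tested. The calls of cct4, hspa5 and dnajc19 there (adjusted p = 0.0664, 0.122 and 0.0708) and of dnajb12b in the OB (0.0743) were lost, as were those of cct5, dnajc9 and dnajb12b in the hypothalamus and hspd1 in Tel. Of the 52, 50 and 57 partner genes tested 2, 2 and 9 were called in the OB, Tel and hypothalamus, beside 5.77%, 9.87% and 18.9% of all genes. The partners called included xbp1, the splicing-activated transcription factor of the unfolded protein response, in Tel and the hypothalamus. What the letter stands for, and so what these differences go with, was not tested.

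**Figure D5:**
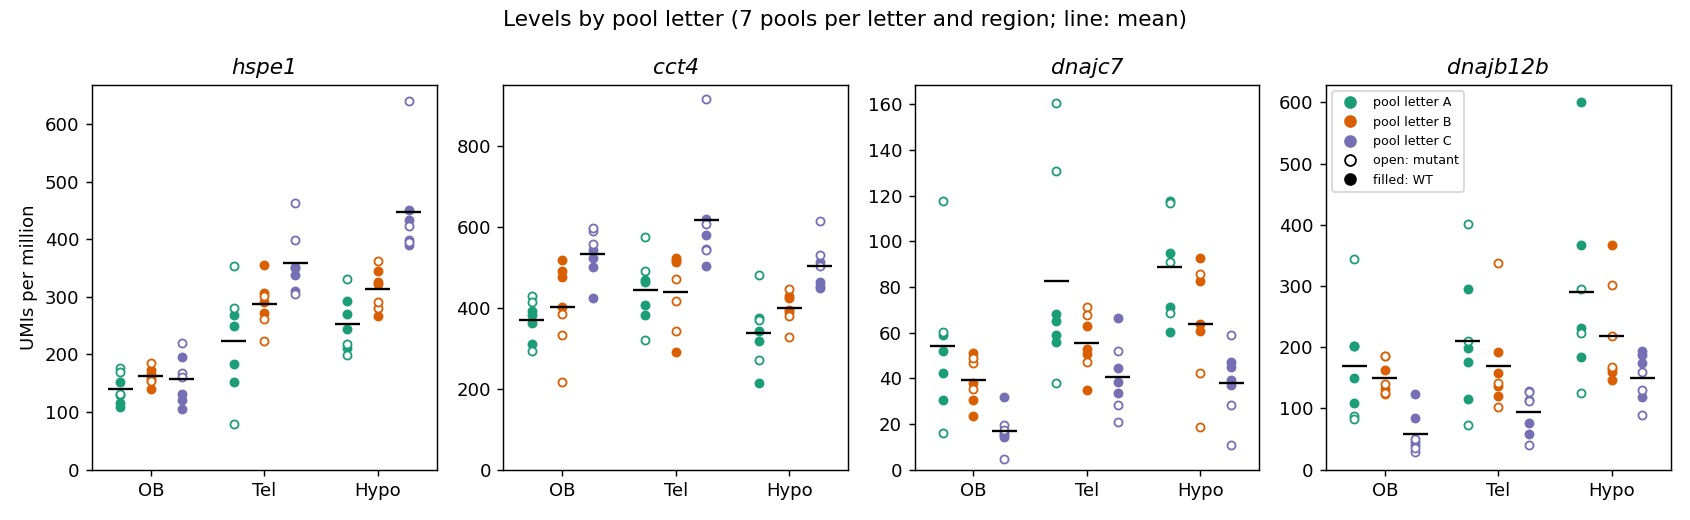
Level of hspe1, cct4, dnajc7 and dnajb12b (CPM) by pool letter and region, 7 pools per letter, with the mean as a line. Filled points are WT pools and open points mutant pools. In the hypothalamus hspe1 and cct4 are highest in letter C, at means of 447 and 504 CPM, and dnajc7 and dnajb12b lowest, at 38.2 and 150.3.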

How the data were processed

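The authors deposited whole-number counts of UMIs per gene for 63 libraries. Per their methods read 2 was aligned to the UCSC danRer11 transcriptome, reads with several places were left out and UMIs counted. The submitters' processing notes name BWA 0.7.4.4. No rlog values were in the file, and the counts were used as deposited. UMIs come from 3′ ends, so levels are not length dependent.

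Each region's 21 libraries were fitted in 1 model of 4 groups with edgeR 4.0.16 (R 4.3.3): TMM scaling, a filter on low counts and the quasi-likelihood test with Benjamini-Hochberg adjustment over 4520, 4437 and 6463 genes. Regions were compared over 6727 genes with the pool code as a block, on the reading that a code in 3 regions is 1 set of fish (mean correlation of same-coded deviations 0.187, over 0.1 in 48 of 63 pairs). WT males and WT females of the same code are different fish, and their mean correlation was 0.176. The value of 0.187 thus does not show that a code is 1 set of fish, and the block remains an assumption. Within-region levels are scaled within the region, and levels between regions over all 63 libraries. Interactions and letters carried no fold threshold. The SE of a log2 difference was derived from its test, as the size of the difference divided by the square root of the F value. Labels do not say more of the pools than their fish, so p-values measure the spread between these pools, which may be technical in part. No 2 columns were identical, and 138 pairs within groups differed by more than sampling noise (chi-square per degree of freedom 1.15 to 6.96).

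Members and partner lists were chosen with earlier results of these data known. Genes named one by one are up to 6 called members per comparison and region, the 10 with the highest mean CPM, fixed representatives of each family, the 3 widest within-group ranges of log2(CPM + 1) and members called 3 or more times. Members described for not overlapping, dnajc18 and the partner genes were named after their values were seen. Of 77 partner genes, 72 were analysed. Of 86 members, 85 matched a RefSeq symbol.

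Library totals of 21444 to 1033008 UMIs set the precision. On simulated counts for mutant against WT females, the test recovered 168, 171 and 189 of 200 changed genes in the OB, Tel and hypothalamus. It made 6, 5 and 11 false calls. The changes put in were all far larger than 1.5-fold, and only genes above a minimum mean count were changed. Recovery of differences near 1.5-fold, or of genes with few UMIs, was not tested. Alternatives were DESeq2 1.42.0, DESeq2's size factors or library totals in place of TMM, no filter, thinned counts, low-total libraries left out, only the groups compared, WT libraries only, the pool block, and each pool left out.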

Additional observations from a re-analysis of the deposited data

Results flagged for a closer look

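In the hypothalamus, dnajc5ga in the mutant female pool A2 was at 48.27 CPM, far from the 3 other mutant female pools at 114.6 to 124.3. It rests on 9 UMIs. Of 20 groups examined in this way 1 stood out, and chance gives about 1 in 20.

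The genotype difference of p4hb differed between the sexes. The female minus male value on the log2 scale was -2.838 in Tel and -3.275 in the hypothalamus (quasi-likelihood test of edgeR, adjusted p = 0.0309 and 0.00131). Tel call remained in 10 of 21 fits without 1 pool (adjusted p = 0.00132 to 0.0994) and in 4 of 7 alternative settings, and the hypothalamus call in all 21 and all 7.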

How the results depend on the processing

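No direction of a called member or count was reversed. The counts of called members, summed over the regions, moved as follows. For mutant against WT females (2) they were 1 with DESeq2's size factors, 1 with the library total and 0 without low-total libraries, and 0 to 3 with 1 pool left out. For males (1) they were 0 with DESeq2, 0 with thinned counts, 0 without low-total libraries and 0 with only the 2 groups, and 0 to 1 with 1 pool left out. With thinned counts and with only the 2 groups dnajc2, the single male call, was not among the genes tested. For mutant males against mutant females (3) they were 1 without low-total libraries and 0 with only the 2 groups, and 0 to 4 with 1 pool left out. For the interaction (0) they were 3 with DESeq2, 4 without the filter, 2 with thinned counts and 1 with the pool code as a replicate block, and 0 to 3 with 1 pool left out. Between regions (52) they were 32 with thinned counts, in which 31 members were tested, and 47 to 64 with 1 pool left out. Between pool letters (12) they were 25 with DESeq2, 20 without the filter and 7 in WT libraries only, and 9 to 21 with 1 pool left out. WT males against females stayed at 0 in all 8 settings and with each pool left out. Apart from members that fell out of the test, the causes of these moves were not tested. The pool code as a replicate block gave 3, 1, 0 and 2 calls in females, males, WT sexes and mutant sexes, and leaving the block out between regions gave 50. Between groups the mean correlation of same-coded deviations was 0.103, 0.107, 0.176 and 0.0819, the third being close to the 0.187 between regions. Codes were not taken as pairs in the main fits, and these values do not decide that choice. The main fits of genotype and sex also left out the pool letter, although the letters were spread unevenly over the groups. Groups of 4 to 6 pools with few UMIs limit what can be seen of the 34 members never tested within a region.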
